A study of Mus musculus with 3 samples.

Results

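The genes Gal (galanin), Npy (neuropeptide Y), Vip (vasoactive intestinal peptide), Nts (neurotensin), Cck (cholecystokinin) and Adcyap1 (the precursor of PACAP) were followed in the neurons of mouse dorsal root ganglia (DRGs) before and after nerve injury. These 6 neuropeptide genes were chosen by name, with earlier results of these data known, as peptides that sensory neurons are known to regulate after axotomy. They are 6 of the 31053 genes listed. All of them are protein-coding in GENCODE on GRCm38. Gal lies at chr19:3409915-3414544 on the minus strand, Npy at chr6:49822710-49829507 on the plus strand and Nts at chr10:102481756-102490486 on the minus strand. Adcyap1 lies at chr17:93199017-93206537 and Vip at chr10:5639218-5647617, both on the plus strand, and Cck at chr9:121489824-121495694 on the minus strand.

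The data consisted of 3 single cell libraries (10x Chromium, 3′ chemistry), 1 from naïve, untreated C57BL/6J mice, 1 from mice 7 days and 1 from mice 14 days after spared nerve injury in both hind legs. Each library pooled 8 DRGs (L3 and L4) from 2 male mice aged 13 weeks, so there was no uninjured side, the mice of a library could not be separated, and no condition had a replicate. No test between conditions was therefore possible, no p-value is given, and every interval below is a 95% interval that covers counting error only. The labels name the injury spared nerve injury, while the text of the study calls it partial sciatic nerve ligation in one place and spared nerve injury in another. In a spared nerve injury some branches of the sciatic nerve are cut and another is left intact, so that the ganglia hold axotomised and intact neurons side by side.

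Neuropeptides are cut from larger precursors, packed into dense-core vesicles and released to act on G-protein-coupled receptors. Galanin, neuropeptide Y and VIP are textbook members of the group that damaged sensory neurons make in larger amounts, while substance P and CGRP are the classical peptides of intact nociceptors. PACAP and VIP are related peptides that share receptors, neurotensin marks a few sensory neurons, and cholecystokinin has been followed mainly in injured ganglia of the rat.

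Since members that move together could share promoter motifs, the bases before the start of the 4 peptide genes that were detected at more than a few molecules are shown here, as RefSeq gives them for GRCm38.p6. Each is read 5′ to 3′ on the strand of its gene and stops before the annotated gene, and capitals mark motif matches.
Gal chr19:3414545-3414794 (-): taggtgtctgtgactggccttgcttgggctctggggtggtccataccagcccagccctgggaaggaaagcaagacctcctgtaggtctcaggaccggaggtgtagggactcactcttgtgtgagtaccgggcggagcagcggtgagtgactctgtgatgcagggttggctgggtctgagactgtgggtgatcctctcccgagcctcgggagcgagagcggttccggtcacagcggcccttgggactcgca
Npy chr6:49822460-49822709 (+): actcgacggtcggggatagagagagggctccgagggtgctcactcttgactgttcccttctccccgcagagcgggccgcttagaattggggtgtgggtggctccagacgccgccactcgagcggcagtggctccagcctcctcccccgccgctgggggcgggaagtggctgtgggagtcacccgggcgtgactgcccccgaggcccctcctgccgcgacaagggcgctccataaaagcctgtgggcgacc
Nts chr10:102490487-102490668 (-): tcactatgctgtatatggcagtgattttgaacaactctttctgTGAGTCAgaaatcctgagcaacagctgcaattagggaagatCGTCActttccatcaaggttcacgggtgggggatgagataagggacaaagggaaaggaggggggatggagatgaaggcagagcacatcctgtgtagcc
Adcyap1 chr17:93198767-93199016 (+): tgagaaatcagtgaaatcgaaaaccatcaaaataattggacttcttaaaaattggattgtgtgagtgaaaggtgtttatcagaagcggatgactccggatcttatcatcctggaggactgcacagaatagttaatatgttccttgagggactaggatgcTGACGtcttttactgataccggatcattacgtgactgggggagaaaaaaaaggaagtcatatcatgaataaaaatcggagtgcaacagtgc
The motifs searched on both strands, in windows from 250 bases before to 50 bases after each RefSeq start, were the cAMP response element TGACGTCA, its shorter core TGACG, which reads as CGTCA on the opposite strand, and the AP-1 element TGAGTCA. The element TGACGTCA was in 0 of the 6 members' promoters, against 1.79% of the 32851 promoters of the same length. Its core was in 5 of the 6, against 20.8% of all promoters. It lay at −91 to −87 in Adcyap1, at −79 to −75 in Vip, at +20 to +24 in Gal, and on the opposite strand at −166 to −162 in Nts and −47 to −43 in Cck. Npy had no match. TGAGTCA was in Nts alone, at −207 to −201, against 5.20% of all promoters. Vip and Cck, which hold the core, were the members with almost no molecules in these neurons. A match is a description of the letters in the window and not a binding site.

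Neurons had to show 500 genes or more, no more than 20% mitochondrial molecules, at least 4 of 8 pan-neuronal markers (Snap25, Tubb3, Uchl1, Stmn2, Stmn3, Elavl4, Syt1 and Rbfox3), and at least 0.3% of their molecules (UMIs) from these markers. This gave 127 naïve neurons of 3152 cells, 208 of 2682 cells at day 7 and 147 of 3828 cells at day 14. The day 7 neurons stood apart. Their median depth was 2277 UMIs, against 64113 in the naïve and 78419 in the day 14 library, since 129 of the 208 held under 4000 UMIs. Those shallow cells together held 3.28% of the day 7 neuron UMIs, and satellite glia and Schwann cell markers were 1.70% of their UMIs (median), against 0.401% in the deeper day 7 neurons. Snap25 was detected in 65.9% of the day 7 neurons and Rbfox3 in 40.4%, against 96.9% and 88.2% of the naïve neurons. Whether these cells are damaged neurons or other cells with neuronal RNA was not settled by these values, and they include 67 of the 99 day 7 cells of the Mrgprd-type below. Levels are therefore given as CPM, the UMIs of a gene per 1000000 summed neuron UMIs, to which shallow cells contribute little. Shares of neurons are given as measured and after each neuron with at least 4000 UMIs was thinned to that depth, which left 113 naïve, 79 day 7 and 130 day 14 neurons. The libraries shared 1, 6 and 2 cell barcodes by pairs, and 1 of these belonged to a gated neuron.

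Gal, which encodes the best known injury peptide of the DRG, was the member with the largest difference at day 7. It had 43.5 CPM (interval 39.2 to 48.2) in naïve neurons, 504 CPM (487 to 522) at day 7 and 224 CPM (216 to 232) at day 14. The naïve library was the lowest and the day 7 library the highest, and the 3 intervals were separate. Relative to naïve neurons, Gal was 11.6-fold higher at day 7 (10.4 to 12.9) and 5.15-fold higher at day 14 (4.62 to 5.75), and 34 of the 12593 genes compared at day 7 had a larger ratio. At least 1 Gal UMI was found in 22 of 127 naïve neurons (17.3%), 105 of 208 at day 7 (50.5%) and 66 of 147 at day 14 (44.9%). After thinning, these shares were 11.1%, 31.4% and 28.3%, so the order held at equal depth. Few cells carried most of the signal at day 7, where 1026, 800, 439 and 330 UMIs in 4 neurons made up 78.0% of the total. At day 14 the highest neurons held 540, 257 and 255 UMIs and in the naïve library 72, 46 and 38. A stricter cell filter, of 1000 genes or more and no more than 10% mitochondrial UMIs, raised the Gal ratio to 4.39 at day 7 and 3.34 at day 14 on the log2 scale, from 3.53 and 2.36.

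Gal was also present in the gated day 7 cells with under 4000 UMIs, whose identity was not settled, in 64 of 129 (49.6%). Its summed level there was 476 CPM (389 to 577), close to that of the deeper ones (505 CPM), but spread differently. No shallow cell held more than 6 Gal UMIs. The top 4 cells held 16.5% of the shallow sum and 80.5% of the deeper one. In the vascular and immune cells of the same library, which should lack it, Gal was found in 8 of 522 cells (1.53%) at 2.59 CPM, with a median depth of 4480 UMIs per cell. Naïve vascular and immune cells had 0 Gal UMIs in 499 cells, which allows up to 1.25 CPM, and day 14 had 2.31 CPM. Neuronal Gal was far above the levels in these cells in every library.

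Npy encodes a peptide that sensory neurons are known to switch on after axotomy. It had 7.76 CPM (6.00 to 9.88) in naïve neurons, 19.4 CPM (16.2 to 23.1) at day 7 and 18.4 CPM (16.1 to 20.9) at day 14. Both injured libraries were above the naïve one, by 2.50-fold (1.84 to 3.42) and 2.37-fold (1.79 to 3.16), and their intervals overlapped each other. These sums rested on very few neurons. In the naïve library 65 of the 66 Npy UMIs came from 1 cell, at day 7 the leading neurons held 94, 21 and 8 of 128 UMIs, and at day 14 they held 89, 75 and 42 of 233. Any Npy UMI was found in 2 naïve neurons (1.57%), 5 at day 7 (2.40%) and 13 at day 14 (8.84%), and thinned shares were 0.858%, 3.20% and 4.87%. The shares at day 7 and in the naïve library had overlapping intervals (0.785% to 5.52% and 0.191% to 5.57%). Satellite glia had an Npy UMI in 0% of cells in the naïve library, 2.23% at day 7 (7 of 314, median depth 7890 UMIs) and 1.71% at day 14, and vascular and immune cells in 0%, 0.383% and 0%. The raw neuronal share at day 7 is therefore not read as expression, and the Npy signal rests on the neurons with many UMIs named above, since no satellite glial cell held more than 2.

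The naïve neuron that held the Npy signal was unlike the other naïve neurons. It had 42 Atf3 UMIs and 58 Sprr1a UMIs, both genes being standard marks of axotomised neurons, together with 65 Npy and 248 Nts UMIs in a total of 76863, and its barcode was not shared with another library. It held 42 of the 104 Atf3 UMIs and 58 of the 61 Sprr1a UMIs of all naïve neurons. Without it, 1 Npy UMI remained in the naïve library, and the log2 ratio of Npy was 7.35 (4.85 to 12.7) at day 7 and 7.27 (4.78 to 12.6) at day 14, against 1.32 and 1.24 with it. Weighting each neuron equally instead of each UMI turned the day 7 ratio of Npy to −0.67. In a gate of at least 6 markers and at least 1% of UMIs the day 14 ratio was 0.36 (−0.04 to 0.78).

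Nts, the precursor of a peptide that is best known for its analgesic and vasoactive actions, had the largest difference between both injured libraries. It had 62.2 CPM (57.0 to 67.8) in naïve neurons, 45.3 CPM (40.3 to 50.8) at day 7 and 292 CPM (282 to 301) at day 14. The day 7 level was the lowest of the 3, at 0.729 times the naïve level (0.630 to 0.841), and the day 14 level was 4.69-fold above naïve (4.28 to 5.15) and 6.44-fold above day 7 (5.72 to 7.27). Without the naïve neuron described above, the log2 ratio to naïve turned from −0.46 to 0.44 at day 7 and rose from 2.23 to 3.13 at day 14. Nts was detected in 15 naïve neurons (11.8%), 20 at day 7 (9.62%) and 54 at day 14 (36.7%). Thinned shares were 6.17%, 11.5% and 19.7%, so that at equal depth the day 7 share lay above the naïve one. Vascular and immune cells had Nts in 1 of 499 naïve cells, 4 of 522 at day 7 (0.766%) and 14 of 787 at day 14 (1.78%). At day 14 the 4 highest neurons held 1393, 555, 479 and 469 UMIs, or 78.3% of the total, while the highest day 7 neuron held 79.

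Adcyap1 encodes PACAP, a peptide of small nociceptive neurons that is known to change after injury. It had 83.5 CPM (77.5 to 89.9) in naïve neurons, 234 CPM (222 to 246) at day 7 and 178 CPM (171 to 186) at day 14. It was the highest of the 6 members in naïve neurons, and both injured libraries lay above the naïve one, 2.80-fold (2.56 to 3.06) at day 7 and 2.13-fold (1.96 to 2.33) at day 14. UMIs were found in 37.0%, 17.8% and 51.0% of the neurons, and in 22.7%, 28.2% and 33.3% after thinning, with a UMI in 3 of the 129 shallow day 7 cells. In vascular and immune cells Adcyap1 was in 1 of 499 naïve cells, 3 of 522 at day 7 (0.575%) and 9 of 787 at day 14 (1.14%). The Adcyap1 ratio depended on how neurons were weighted and typed. With equal weight for each neuron it was −0.83 at day 7 on the log2 scale, and within the peptidergic neurons described below it was 0.88 at day 7 and −0.04 at day 14, under the 2-fold limit at both times.

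Vip, a peptide known to rise in injured rat ganglia, had 0 UMIs in the neurons of every library. This allows a level of up to 0.353 CPM in naïve neurons, 0.455 CPM at day 7 and 0.237 CPM at day 14, and up to 2.36%, 1.44% and 2.04% of neurons with a UMI. These limits are on detection, and a shallow cell can express a gene without a UMI of it. Cck had 3, 4 and 2 UMIs, each time in 2 neurons, and its ratio to naïve was 1.72 (0.291 to 11.7) at day 7 and 0.447 (0.0373 to 3.90) at day 14. At day 7 the wide interval for Cck just held a difference of the size seen for Gal (11.6-fold). At day 14 the interval for Cck ended below the ratios of Gal and Nts.

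**Figure D1:**
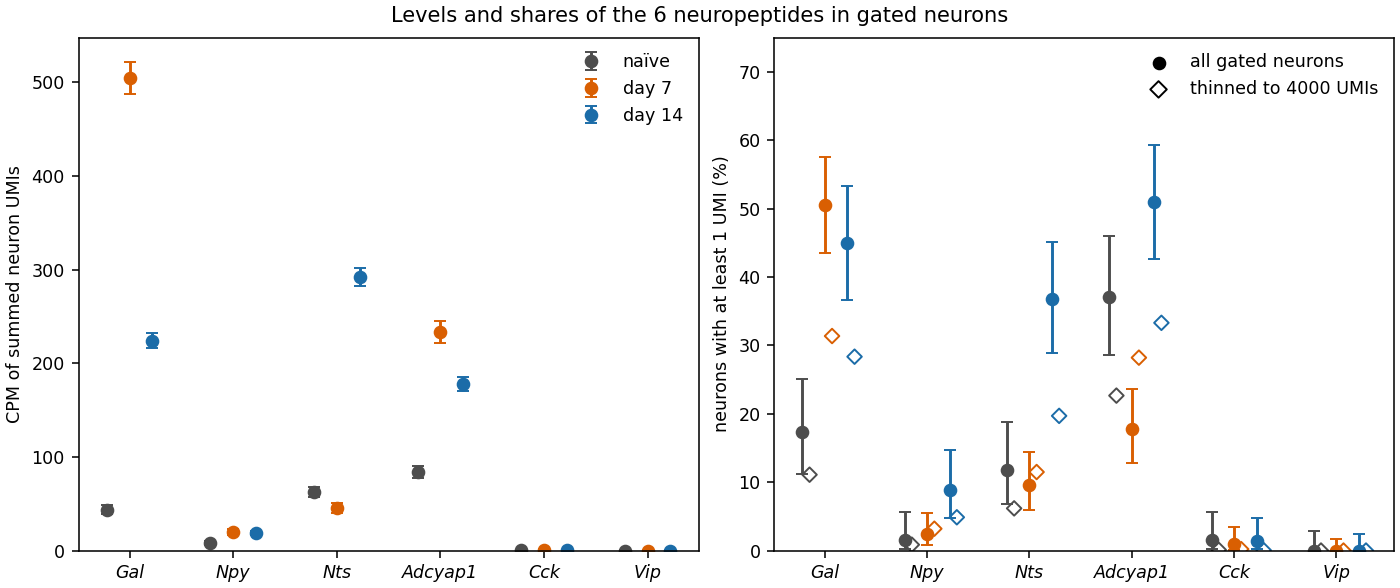
Left, CPM of the summed UMIs of gated neurons for the 6 neuropeptide genes in the naïve, day 7 and day 14 library, with exact Poisson intervals, and right, the share of neurons with at least 1 UMI, with exact Clopper-Pearson intervals and open diamonds for neurons thinned to 4000 UMIs. Gal was highest at day 7 (504 CPM) and Nts at day 14 (292 CPM), and the raw day 7 share of Adcyap1 (17.8%) lay below its thinned share (28.2%).

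Counted together, 4 of the 6 members reached the minimum of 20 UMIs over the libraries compared. A gene was called at least 2-fold higher where its CPM ratio was 2 or more and the lower end of the counting interval was above 1, and lower by the same rule in reverse. At day 7 over naïve, 3 of the 4 (Gal, Npy and Adcyap1) were called higher, beside 4.03% of the 12593 genes compared, and 0 were lower, beside 1.49%. At day 14 all 4 compared were called higher, beside 5.99% of 13269 genes, and 0 were lower, beside 1.31%. Between day 14 and day 7, Nts was called higher, beside 2.26% of 13204 genes, and Gal lower at 0.444 times its day 7 level (0.422 to 0.467), beside 1.04%. Npy (0.947 times, 0.760 to 1.18) and Adcyap1 (0.763 times, 0.715 to 0.814) were called in neither direction. All of these ratios share the naïve or the day 7 library, so they are not separate observations. The members were chosen with earlier results of these data known, so the counts are not an independent test of the group. At day 14, Npy and Adcyap1 dropped under 2-fold when UMIs were scaled to the 8 pan-neuronal markers, which lowered the log2 ratio of every gene by 0.26 at day 7 and by 0.33 at day 14.

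Neurons were assigned to types by scores over fixed marker lists, and each type is thus a range of scores. Injured neurons can lose type markers, so a ratio within a type compares only neurons that kept them. The scores of 8, 26 and 20 neurons of the naïve, day 7 and day 14 library were near the margin between types. The peptidergic Tac1-type held 27, 30 and 54 neurons, the non-peptidergic Mrgprd-type 40, 99 and 29, the itch-related Sst and Nppb type 7, 5 and 18, the C-LTMR Th-type 27, 9 and 12, and the large Nefh-type 9, 8 and 10, with 17, 57 and 24 left untyped. The make-up of the libraries thus differed, and the peptidergic neurons held 13.0%, 22.6% and 32.7% of the neuron UMIs. None of the peptidergic markers was among the 10 genes that led that type, which were led by Gpx3 and Atp2a3 and included Adcyap1. The untyped neurons were led by Wisp1 and had Sprr1a, Atf3 and Gal among their leading genes, and 49 of the 57 at day 7 held under 4000 UMIs.

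In the naïve library 80.8% of the Gal UMIs lay in the peptidergic Tac1-type. Within this type Gal was at 271 CPM in naïve, 385 CPM at day 7 and 468 CPM at day 14 neurons, a log2 ratio of 0.51 (0.30 to 0.71) and 0.79 (0.61 to 0.97), which is under 2-fold. In all other neurons together the log2 ratio was 5.81 (5.47 to 6.17) at day 7 and 3.46 (3.11 to 3.83) at day 14. At day 7 this rested on few cells. Single untyped neurons held 1026, 439 and 330 of the 1841 Gal UMIs in untyped neurons with Atf3, and 1 Nefh-type neuron held 800. The untyped neurons had 49.9 CPM in the naïve library, 2404 CPM at day 7 and 562 CPM at day 14. Of these, the day 7 neurons with 1026, 439 and 330 Gal UMIs held 13, 0 and 1 Tac1 UMIs and 1, 2 and 1 Calca UMIs. Tac1 and Calca are markers of the peptidergic type, and the type of these neurons before injury was not tested. The Nefh-type had 96.9, 2909 and 31.6 CPM, with 800 of its 810 day 7 UMIs in 1 cell. In the Mrgprd-type Gal was at 0.512, 22.7 and 1.74 CPM, a low level that was highest at day 7. No day 7 cell of this type held more than 3 Gal UMIs. Of the 99 day 7 cells, 67 held under 4000 UMIs, and their identity was not settled. Peptidergic neurons held 17.3% of the Gal UMIs at day 7 and 68.3% at day 14, and within them the day 14 level was not below that of day 7 (log2 ratio 0.28).

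Nts had another distribution. The Sst and Nppb type, neurons that signal itch, held 39.1%, 41.1% and 38.5% of the Nts UMIs, and its level was 358 CPM in naïve, 263 CPM at day 7 and 900 CPM at day 14 neurons. The day 14 level rested mainly on single cells with 555 and 479 UMIs, both with Atf3. In the day 14 neurons of this type without Atf3 it was 287 CPM. All 7 naïve neurons of this type, 4 of 5 at day 7 and 17 of 18 at day 14 had Nts. The Nefh-type was at 635, 129 and 2577 CPM, but 248 of its 249 naïve UMIs and 1393 of its 1470 day 14 UMIs came from 1 cell each. Untyped neurons had 3.22, 152 and 409 CPM and peptidergic neurons 0, 12.8 and 38.2 CPM.

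Adcyap1 was in peptidergic neurons in all libraries, with 79.7%, 91.0% and 91.5% of its UMIs there and levels of 513, 942 and 499 CPM. The Nefh-type was at 158, 151 and 147 CPM, but at day 14 1 cell held 61 of the 69 UMIs in its neurons with Atf3. Its neurons without Atf3 were at 155, 340 and 66.2 CPM. The Sst and Nppb, Mrgprd and C-LTMR types were at 10.7 CPM or less. Npy was in the Nefh-type at 166, 35.9 and 226 CPM. There the naïve neuron with 42 Atf3 UMIs held all 65 naïve UMIs, and at day 14 single cells held 75 and 42 of 129. In untyped neurons Npy was at 148 CPM at day 7, with 94 and 21 of 115 UMIs in single cells. In the peptidergic type it was at 21.5 CPM at day 14, where 1 cell held all 89 UMIs.

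**Figure D2:**
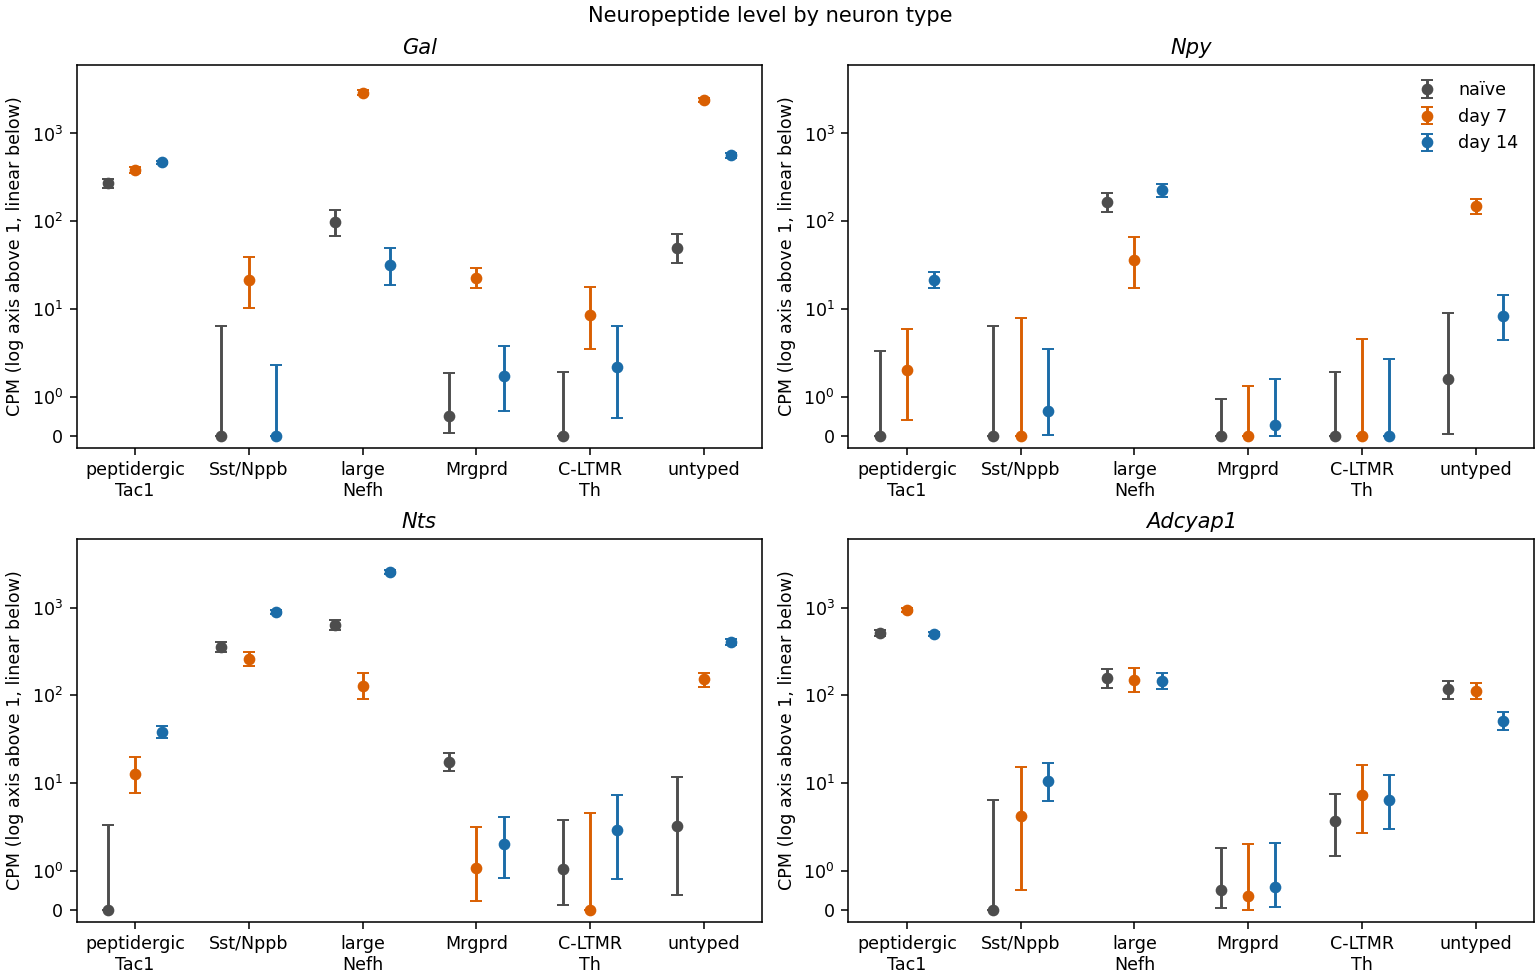
CPM of Gal, Npy, Nts and Adcyap1 (axis logarithmic above 1 and linear below) in the 6 groups of neurons and the 3 libraries, with exact Poisson intervals. Gal in untyped neurons was at 49.9, 2404 and 562 CPM and in the Nefh-type at 96.9, 2909 and 31.6 CPM, while Adcyap1 kept its highest level in the peptidergic type (513, 942 and 499 CPM) and Nts was at 900 CPM in the Sst and Nppb type at day 14.

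Atf3, a transcription factor induced by axotomy, was at 12.2 CPM in naïve, 165 CPM at day 7 and 107 CPM at day 14 neurons, and was detected in 27, 72 and 66 of them. Neurons with an Atf3 UMI were then compared with those without, inside each library. The split also separated neurons by depth, with medians of 4844 against 1882 UMIs at day 7 and 101038.5 against 55284 at day 14, and among day 7 neurons with at least 4000 UMIs the log2 ratio of Gal was 3.23, against 2.95 in all. At day 7, 3 of the 4 members compared were at least 2-fold higher with Atf3, beside 4.85% of 11366 genes, and at day 14 also 3 of 4, beside 3.6% of 12553 genes. The same members, Gal, Npy and Nts, were called at both times.

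Npy was found only in neurons with Atf3 in these libraries. It had 128 UMIs against 0 at day 7 and 233 against 0 at day 14, which is at least 34.5-fold and at least 61.9-fold higher against the limit of 3 counts over the group without Atf3. In the naïve library, 66 UMIs lay in neurons with Atf3 and 0 in the rest. Nts was at 81.4 against 0.678 CPM at day 7 (297 against 2 UMIs), and at 512 against 14.8 CPM at day 14, a 34.7-fold difference (27.9 to 43.7). Naïve Nts was at 182 against 6.38 CPM, a 28.6-fold difference (20.4 to 41.1), and at 93 CPM, 14.6-fold (10.3 to 21.2), without the neuron that held 248 of the 492 UMIs. Inside the Sst and Nppb type the differences were smaller, with 386 CPM in 5 neurons against 265 CPM in 2 in the naïve library, and 1018 CPM in 13 neurons against 287 CPM in 5 at day 14. Single cells held 555 and 479 of the 1352 UMIs in these 13 neurons. When Sprr1a took the place of Atf3, the day 7 log2 ratio of Nts between neurons with and without it was 0.77 (0.42 to 1.12), against 6.91 with Atf3.

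Gal was at 826 CPM with Atf3 and 107 CPM without at day 7, 7.73-fold higher (6.88 to 8.71), and at 341 against 77.3 CPM at day 14, 4.41-fold higher (3.98 to 4.89). The naïve library had the opposite order, with 1.85 CPM (5 UMIs) in neurons with Atf3 and 62.9 CPM (365 UMIs) in those without. Only 1 of the 27 naïve neurons with Atf3 was peptidergic, the type with most of the naïve Gal. That neuron held the 5 UMIs (76 CPM), and the 26 naïve peptidergic neurons without Atf3 were at 283.5 CPM. In day 14 peptidergic neurons Gal was at 781 CPM with Atf3 and 194 CPM without, and in day 7 peptidergic neurons at 617 CPM against 245 CPM, where 1 cell held 267 of the 346 UMIs with Atf3. The Mrgprd-type, the most numerous at day 7, had the opposite order at a low level, with 14.2 CPM in 23 neurons with Atf3 and 27.4 CPM in 76 without. Among neurons with at least 50 CPM of Atf3, Gal was at 2191 CPM in 55 day 7 neurons and 706 CPM in 34 day 14 neurons. Neurons with Atf3 under 50 CPM had 4.39 CPM at day 7, below those without Atf3, and 53.5 CPM at day 14. In cells under 4000 UMIs 1 Atf3 UMI already exceeds 50 CPM, and 21 of the 55 day 7 neurons, at 2268 CPM of Gal, were deeper.

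Adcyap1 did not follow Atf3 in this way. It was at 185 CPM with and 294 CPM without Atf3 at day 7 (0.630 times, 0.569 to 0.697), and at 133 against 235 CPM at day 14 (0.567 times, 0.521 to 0.617), but the day 7 log2 ratio turned to 1.55 with a limit of 50 CPM of Atf3, and the day 14 ratio to 2.16 in neurons outside the peptidergic type. In day 7 peptidergic neurons Adcyap1 was at 1027 CPM with Atf3, where 1 cell held 417 of the 576 UMIs, and at 890 CPM without. At day 14 the levels in this type were 399 CPM with Atf3 and 587 CPM without. The highest Adcyap1 neuron of day 7, with 417 UMIs, had 160 Atf3 UMIs and 0 Tac1 UMIs, and the next, with 284 UMIs, had 0 Atf3 and 850 Tac1 UMIs.

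**Figure D3:**
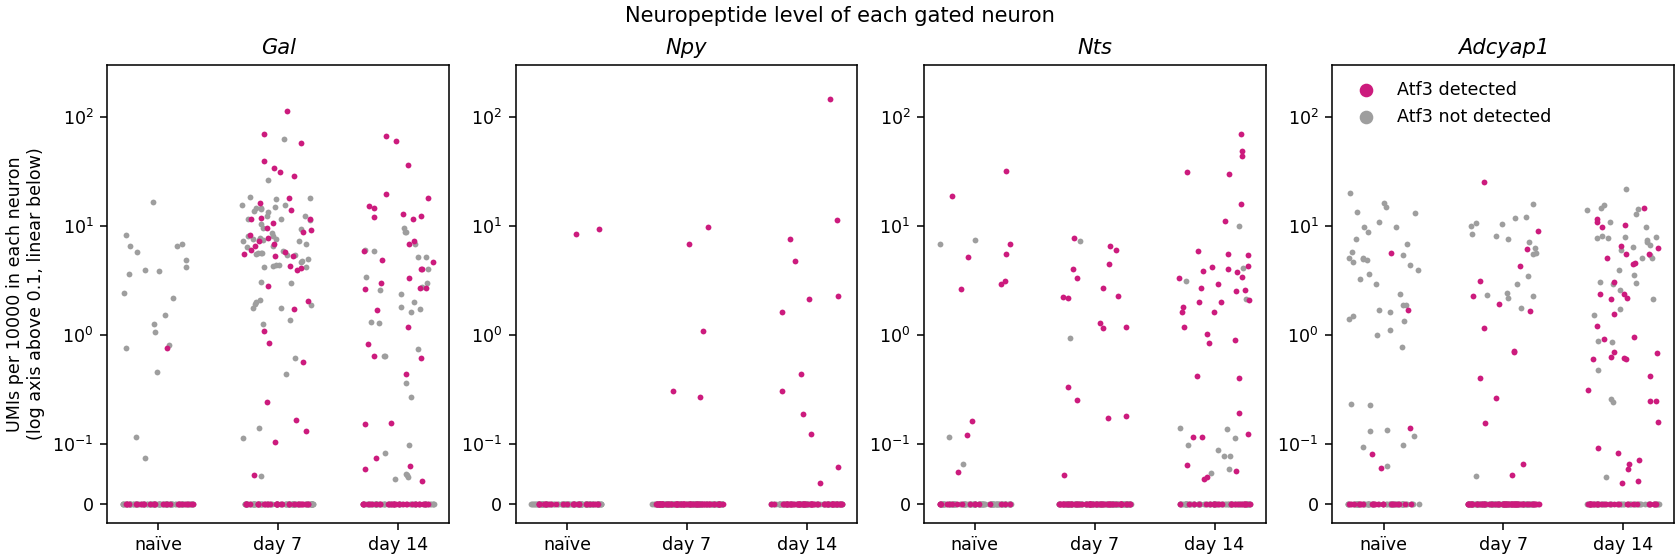
UMIs per 10000 of Gal, Npy, Nts and Adcyap1 in each gated neuron of the 3 libraries (axis logarithmic above 0.1 and linear below), with neurons that had an Atf3 UMI in pink and the others in grey. All neurons with Npy and most with high Nts were pink in every library, Gal was in both colours after injury and mostly in grey neurons in the naïve library, and Adcyap1 was in both.

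Next, the peptides were followed within single neurons. A neuron was called strong for a peptide at 10 UMIs or more. Of the 355 neurons of both injured libraries, 54 were strong for Gal, 38 for Nts, 61 for Adcyap1 and 5 for Npy, and 34, 35, 26 and 5 of these had Atf3. The 54 Gal neurons held 95.8% of all Gal UMIs. Gal and Nts were both strong in 11 neurons, 20.4% of the Gal and 28.9% of the Nts neurons. Gal and Adcyap1 were both strong in 40, which is 74.1% of the Gal and 65.6% of the Adcyap1 neurons. Over all 355 neurons, 10.7% were strong for Nts and 17.2% for Adcyap1, so both shares among strong Gal neurons were above the share over all neurons. Of the 129 day 7 neurons with under 4000 UMIs, 0 were strong for Gal, Nts or Adcyap1. They lower the shares over all neurons, so this comparison does not separate pairing from depth. At day 14, Nts was strong in 21.6% of the strong Gal neurons and in 20.4% of all neurons, and Adcyap1 in 75.7% and 29.9%. All 5 Npy neurons were also strong for Nts, and 2 of them for Gal. In the naïve library, 11 of the 12 strong Gal neurons were strong for Adcyap1, 0 for Nts, and 0 of the 12 had Atf3. At least 3 of the 6 peptides were detected in 1 naïve neuron, 11 at day 7 and 24 at day 14, and these counts rise with depth.

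The leading neurons show these combinations. The top Gal neuron of day 7 held 1026 Gal, 56 Adcyap1, 3 Nts and 0 Npy UMIs with 138 Atf3 UMIs. The top Npy neuron of day 7 held 94 Npy and 32 Nts but 1 Gal UMI, with 91 Atf3 and 497 Sprr1a UMIs. The top Nts neuron of day 14, a large Nefh-type cell with 198 Nefh UMIs, held 1393 Nts, 42 Npy, 61 Adcyap1 and 3 Gal UMIs. The next Nts neurons, with 555 and 479 UMIs, were of the Sst and Nppb type, with 22 and 23 Nppb UMIs and 0 Sst.

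**Figure D4:**
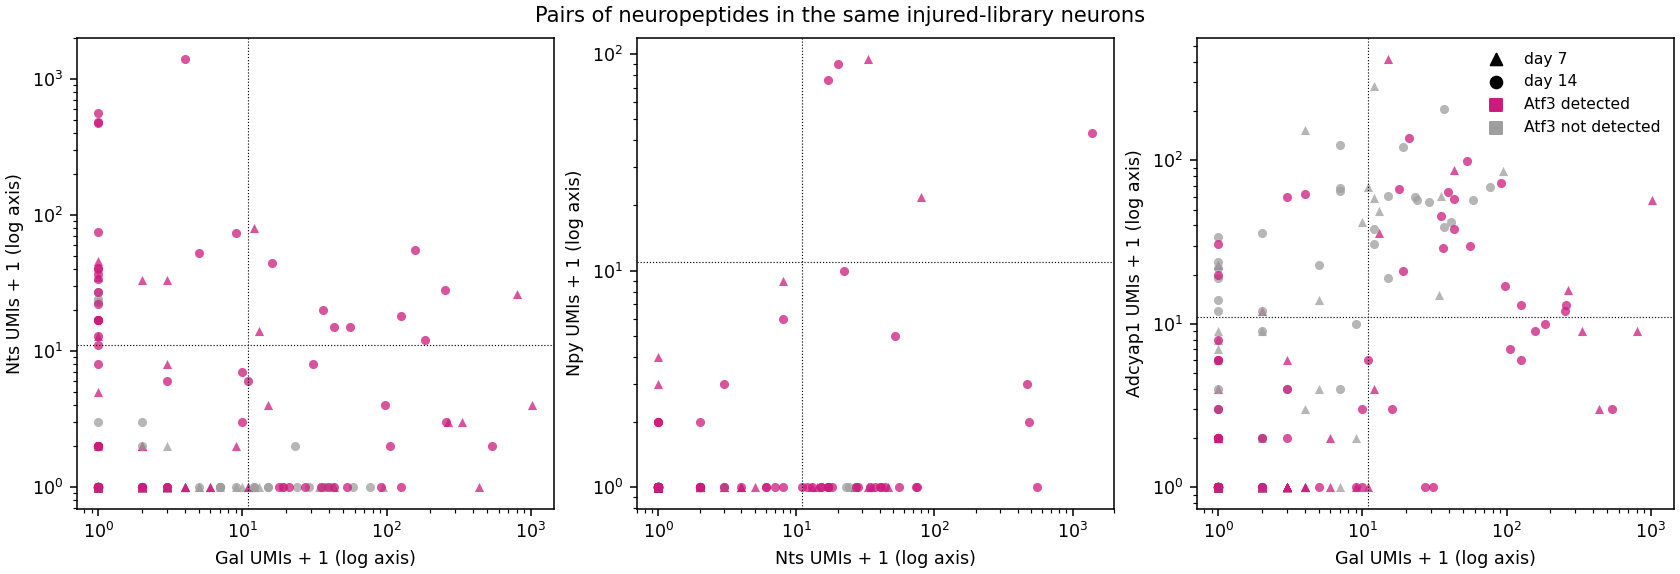
UMIs + 1 (log axes) of Gal and Nts, Nts and Npy, and Gal and Adcyap1 in the 355 neurons of the injured libraries, with triangles for day 7, circles for day 14, pink for neurons with Atf3, grey for those without, and dotted lines at 10 UMIs. Of the strong neurons, 11 lie in the upper right of the Gal and Nts panel, 5 in that of Nts and Npy and 40 in that of Gal and Adcyap1.

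Among genes detected in at least 10% of these 355 neurons, those most alike in log-scaled level to Gal were Gap43 (Pearson r 0.51), Sprr1a (0.50) and Sox11 (0.45), all known growth or injury genes. Nts was most like Tesc (0.56), Tmem43 (0.44) and Ildr2 (0.44). Adcyap1 was most like Tac1, the substance P precursor (0.70), the NPY receptor gene Npy1r (0.70) and Gpx3 (0.68). Gal and Nts had an r of −0.06 with each other. The neurons share libraries and differ in depth, and over the 209 neurons with at least 4000 UMIs the leading genes were D430019H16Rik for Gal (0.63), Cavin1 for Nts (0.59) and 6330403K07Rik for Adcyap1 (0.73).

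The receptors of these peptides were a list of 15 genes, of which 7 could be compared at day 7 and 9 at day 14. At day 7, 1 was called higher (Cckbr), beside 4.03% of all genes, and 2 lower (Galr1 and Ntsr2), beside 1.49%, with a median log2 ratio of 0.37 beside 0.03 over all genes. At day 14, 5 were called higher, beside 5.99%, and 0 lower, beside 1.31%, with a median of 1.30 beside 0.09. Cckbr, a cholecystokinin receptor, was at 4.59, 14.4 and 22.9 CPM. The NPY receptor genes Npy1r and Npy5r were at 27.9, 49.1 and 124 CPM and at 0.588, 1.82 and 1.74 CPM, and so lowest in naïve neurons. Galr1 was at 2.12, 0.455 and 7.10 CPM and Ntsr2 at 2.82, 0.758 and 4.57 CPM, both lowest at day 7. Inside the peptidergic type, which was a larger part of the day 14 library, Npy1r was at 130, 192 and 326 CPM and Galr1 at 14.5, 2.01 and 19.1 CPM. Npy2r, also higher at day 14, was at 656, 802 and 693 CPM in the Sst and Nppb type, in the peptidergic type at 26.3, 79.9 and 83.6 CPM and in untyped neurons at 3.22, 19.4 and 47.6 CPM. Cckar was at 186, 261 and 204 CPM in the C-LTMR type, whereas Cck itself was nearly absent from neurons.

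Peptides need enzymes that cut the precursors and proteins that build and release the vesicles. Of 12 such genes, 11 were compared at day 7 and 12 at day 14, and 0 were called against naïve in either direction at either time, with median log2 ratios of −0.19 and 0.08, beside 0.03 and 0.09 over all genes. Over all genes, 4.03% and 5.99% were called higher and 1.49% and 1.31% lower, so 0 calls in so short a list lies near these shares. Between day 14 and day 7, 2 of 11 (Scg2 and Cadps2) were called higher, beside 2.26% of all genes, and 0 lower, beside 1.04%. Pcsk2, a prohormone convertase, was at 179, 206 and 193 CPM, and Cpe, which trims the cleaved peptides, at 763, 601 and 579 CPM.

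Of 10 other sensory neuropeptides, 8 were compared. At day 7, Crh was called higher and Sst and Penk lower, and at day 14 Calca, Penk and Crh were called higher and 0 lower. These were 1 gene beside 4.03% of all genes and 2 beside 1.49% at day 7, and 3 beside 5.99% at day 14, with medians of −0.21 and 0.43 beside 0.03 and 0.09 over all genes. Calca, the precursor of CGRP, was at 706, 1405 and 1549 CPM, and its day 7 ratio of 1.99 lay just under the limit. Crh, a stress hormone precursor, had 6, 33 and 23 UMIs, Penk, an opioid precursor, at 3.88, 0.152 and 10.5 CPM, and Sst at 26.2, 11.4 and 15.8 CPM. Of 10 injury genes, 9 were called higher at both times, beside 4.03% and 5.99% of all genes. Their medians were 1.99 and 2.02, beside 0.03 and 0.09 over all genes. The list was chosen with earlier results of these data known, so the count is no independent check of the labels. Sprr1a was at 7.18, 625 and 273 CPM, Ecel1 at 3.88, 55.5 and 44.6 CPM, Sox11 at 105, 491 and 354 CPM and Csf1 at 6.23, 32.9 and 27.0 CPM. Sprr1a and Gal had the same order of libraries, highest at day 7 and lower at day 14, which Nts did not share.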

How the data were processed

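The deposited files held, for each library, whole-number counts of unique molecular identifiers per gene and barcode, in barcodes that the authors had already called as cells (10x 3′ chemistry). The submitters' processing notes name Cell Ranger 3.0.2 and the build mm10. The study names these libraries in its results but its methods section gives no steps for them, and other settings were not given in the sources used here. The libraries held 3748, 3281 and 4908 barcodes and 23107376, 22343246 and 36550911 UMIs (naïve, day 7 and day 14).

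Cells entered with 500 genes or more and no more than 20% mitochondrial UMIs, and neurons were gated by 8 markers. A type needed at least 2 of its markers detected and a lead of 0.1 in its score over the next type. Raw counts of neurons were summed per library. CPM were given exact Poisson intervals, shares Clopper-Pearson intervals, and ratios conditional exact binomial intervals, all at 95% and without replicates. A ratio was called where at least 20 UMIs lay in both sums together, the ratio was at least 2 (or its inverse), and the interval did not hold 1. Where a group had 0 counts, 3 counts over the group served as its limit. Doublets were kept in the values reported, and Scrublet marked 29, 32 and 29 cells, of which 0, 1 and 1 were neurons.

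Named genes were the 6 members, at most 5 genes of each fixed list with at least 20 UMIs and a 2-fold difference in either injured library, and the 3 genes with the highest Pearson r for each member found in at least 10% of injured neurons. Genes of the lists outside this rule (Pcsk2, Cpe, Cckar) were named after their values were seen. Npy2r, Sort1, Vipr2, Adcyap1r1, Scg2 and Cadps2 were also named outside it. The members and lists were chosen with earlier results of these data known. Neurons were weighted and gated in other ways as alternatives. Those without the naïve neuron with the most Atf3, in peptidergic neurons alone and in all other neurons were chosen after seeing the data. The code was tested on simulated data. Python 3.11.15, numpy 2.4.6, scipy 1.17.1, pandas 2.3.3, scanpy 1.11.5 and matplotlib 3.10.9 were used.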

Additional observations from a re-analysis of the deposited data

How the results depend on the processing

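No paired analysis was possible because only 1 library was made per condition, and for the same reason no library could be left out. Log2 ratios of Gal kept their direction against naïve under all 14 alternatives. At day 7 and day 14 they were 3.53 and 2.36 as reported, 4.39 and 3.34 with 1000 genes or more and no more than 10% mitochondrial UMIs, 4.12 and 2.78 in the stricter gate, 3.28 and 2.03 scaled to pan-neuronal markers, and 3.05 and 2.15 as the mean of each neuron's CPM. They were 0.51 and 0.79 in peptidergic neurons alone and 5.81 and 3.46 in the others, and at day 7 3.33 without the top neuron.

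With the mean of each neuron's CPM the direction turned for Npy (−0.67) and Adcyap1 (−0.83) at day 7 over naïve, and at day 14 over day 7 for Npy (−0.08 to 3.77, 11 of 14 alternatives in the reported direction) and Adcyap1 (−0.39 to 1.35, 13 of 14). The day 14 mean of Npy, 121 CPM, rested mainly on 1 neuron with 75 Npy UMIs in a total of 5110 (14677 CPM). The day 7 ratio of Nts kept its direction in 11 of 13, and the Atf3 split of Adcyap1 in 6 of 10 at day 7 and 9 of 10 at day 14. The direction also turned in peptidergic neurons alone for Adcyap1 at day 14 over naïve (−0.04) and Gal at day 14 over day 7 (0.28). The cause was not tested.

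At day 7 over naïve, 3 members were called higher, but 1 (Gal) by the mean of each neuron's CPM and 0 in peptidergic neurons. At day 14 over naïve the count was 4, and 2 in the stricter gate, with pan-neuronal scaling and in neurons other than peptidergic (Gal and Nts each time), and 2 (Npy and Nts) in peptidergic neurons. At day 14 over day 7 it was 1, and 3 by the mean of each neuron's CPM, 2 without the top neurons and 2 in peptidergic neurons. In the day 7 Atf3 split it was 3, and 1 (Gal) in peptidergic neurons. The log2 ratio of Gal between neurons with and without Atf3 stayed above 0 under 10 of 10 alternatives, from 1.02 to 5.14 at day 7 and from 1.77 to 6.22 at day 14. At 1 library per condition, the spread between mice is unknown, and the depth of the day 7 neurons limits the shares more than the levels.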

Other observations

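Receptors of these peptides were also read in the cells outside the neuron gate, where several were higher than in neurons. Npy1r, a receptor that mediates constriction of vessels by neuropeptide Y, was at 694 CPM in naïve mural cells, 794 CPM at day 7 and 502 CPM at day 14, with a UMI in 80.5%, 93.6% and 72.4% of 113, 94 and 163 cells. Vipr2, which binds VIP and PACAP, was at 35.1, 55.8 and 39.8 CPM in mural cells, whereas it had 6 UMIs in the neurons of all libraries together. Adcyap1r1, the PACAP receptor, was at 29.8, 42.1 and 52.9 CPM in fibroblasts and 27.6, 32.2 and 32.7 CPM in mural cells, with 6.96, 7.34 and 2.72 CPM in satellite glia. Sort1, a sorting receptor that also binds neurotensin, was at 94.3, 98.5 and 101 CPM in satellite glia and 178, 183 and 146 CPM in mural cells. Each of these levels was above the neuronal level of the same gene in all 3 libraries, and no test between libraries was possible.

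Outside the neurons, Vip had 1 UMI in all libraries together, in 1 endothelial cell at day 7. Cck UMIs in neurons lay in Sst and Nppb type or peptidergic cells, with at most 2 UMIs per cell. Satellite glia had 0.497, 2.10 and 5.98 CPM of Gal, and 0, 3.14 and 1.90 CPM of Npy, and how far neuronal RNA in these cells enters those values was not tested.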
